A study of Caenorhabditis elegans with 2 samples.

Results

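The 10 genes described here are lin-14, lin-28, hbl-1, lin-46, lin-41, lin-29, lin-42, daf-12, blmp-1 and apl-1, taken by name from the 19973 protein-coding genes of the worm annotation because they order or read out developmental time around the second larval stage. Whole Caenorhabditis elegans L2 larvae, males and females pooled and of unknown age, were used for chromatin immunoprecipitation followed by sequencing (ChIP-seq) of R02D3.7 fused to eGFP. The animals were of strain OP218, which carries the unc-119(ed3) allele and the integrated transgene wgIs218, and all libraries share this genotype. There was 1 group of 2 biological replicates and no other stage or genotype, so binding could not be set against another time point. The tagged gene, named rcat-1 in the annotation, was expressed from the transgene in animals whose cells were not separated, so a region bound in a few cells and one bound weakly in many cannot be told apart.

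The heterochronic pathway sets the order of cell fates in the larval skin and other tissues. Early in larval life LIN-14, LIN-28 and HBL-1 hold cells in early fates, and small RNAs of the lin-4 and let-7 families then repress them, which lets LIN-29 drive the adult programme. Other members tie this order to hormones and to the moulting cycle, such as the nuclear receptor DAF-12 and the period-related protein LIN-42.

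For each gene the window held the gene body and 5000 bp upstream of its annotated 5' ends on WBcel235, the assembly also called ce11, and a region was counted when its summit, the position of highest signal, lay in the window. The lists hold 30000 candidate regions for each replicate and 30000 for the joined reads. Of the joined regions, 542 passed the irreproducible discovery rate (IDR) step, which compares the ranks of regions in the replicates. These 542 were the regions of highest signal in the joined list, and 14 of them overlapped no region of replicate 2. Signal means column 7 of the deposited lists, whose scale is not stated, so values are compared only within a list. Rank 1 is the highest signal of a list.

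The sequences around 7 of the stronger summits are shown because none of them holds the short words that are frequent in the IDR set. Each runs 50 bp to either side of the summit, 101 bp in all, on the plus strand of WBcel235 from the RefSeq copy of the assembly, and the capital marks the summit base.
daf-12, held by all 3 lists (chrX:10637649-10637749): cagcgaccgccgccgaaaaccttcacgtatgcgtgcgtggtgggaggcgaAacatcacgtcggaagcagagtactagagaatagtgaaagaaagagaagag
daf-12, held by all 3 lists (chrX:10642419-10642519): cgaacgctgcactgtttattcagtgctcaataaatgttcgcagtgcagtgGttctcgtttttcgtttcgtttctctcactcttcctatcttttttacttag
daf-12, strongest in the joined list (chrX:10631990-10632090): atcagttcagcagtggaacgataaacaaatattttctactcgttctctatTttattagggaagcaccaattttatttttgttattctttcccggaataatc
lin-14 (chrX:11467820-11467920): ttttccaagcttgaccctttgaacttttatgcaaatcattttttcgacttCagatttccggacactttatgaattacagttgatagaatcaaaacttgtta
lin-29 (chrII:11922917-11923017): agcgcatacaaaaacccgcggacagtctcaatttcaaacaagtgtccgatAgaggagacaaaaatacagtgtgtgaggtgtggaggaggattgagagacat
lin-42 (chrII:1247020-1247120): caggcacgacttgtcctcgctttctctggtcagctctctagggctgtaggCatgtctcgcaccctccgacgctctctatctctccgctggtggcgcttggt
hbl-1 (chrX:5826248-5826348): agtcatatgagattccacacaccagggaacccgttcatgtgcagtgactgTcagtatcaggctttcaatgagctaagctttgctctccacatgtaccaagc

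The first word searched was ACGCGC. The second was GACGCA. The last was CGTAAA. Each was searched on both strands, and a match to one word may overlap a match to another. In the next 4 sequences the capitals mark the matches, and TTTACG is CGTAAA read on the other strand. The first 3 are weaker regions of the timing genes that hold a word, and the last is the strongest region of the IDR set, shown for comparison.
daf-12, with CGTAAA (chrX:10648669-10648769): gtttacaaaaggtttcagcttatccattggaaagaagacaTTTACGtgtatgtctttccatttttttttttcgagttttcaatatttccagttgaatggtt
daf-12, with ACGCGC (chrX:10662604-10662704): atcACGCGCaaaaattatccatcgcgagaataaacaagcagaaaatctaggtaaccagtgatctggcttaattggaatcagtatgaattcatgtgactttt
lin-42, with GACGCA (chrII:1237935-1238035): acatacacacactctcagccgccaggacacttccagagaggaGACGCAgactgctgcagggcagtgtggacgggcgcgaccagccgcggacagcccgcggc
strongest IDR region of the data set (chrII:4299386-4299486): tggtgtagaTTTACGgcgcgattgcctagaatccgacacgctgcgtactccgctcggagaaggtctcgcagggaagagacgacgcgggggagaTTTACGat

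None of the 24 member regions at joined rank 5000 or better held any of the 3 words. A word was held by 55.0% of the 542 IDR regions and by 9.51% of the 4458 other regions of rank 5000 or better. The words are ones that are frequent in the IDR set, so the 55.0% is not an independent comparison. Against a share of 9.51%, 24 regions are too few for the absence of the words to show a difference. Among all 82 member regions of the joined list 6 held a word, or 7.32%, against 7.21% of the 29458 joined regions outside the IDR set. The member share lay near that of other regions outside the IDR set, and a word that is not in a window says only that these letters are not there. GC content was 36.7% ± 9.02 over the 82 member windows (SD over regions), 45.8% ± 7.78 over the IDR set and 33.0% ± 8.05 over the other joined regions. It spread widely within the genes: among the 24 member windows at rank 5000 or better the lowest, in daf-12, had 20.8% GC and the highest, in lin-42, had 60.4% GC.

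None of the 10 genes held a summit of the IDR set, against 6.22% of all protein-coding genes in windows built the same way. A count of 0 of 10 allows a share of up to 30% by the limit of 3 counts, and up to 27.8% by the 95% Wilson interval, so 10 genes are too few to show a difference from the background. Below the IDR set, 8 of the 10 genes held a joined summit of rank 5000 or better, against 33.8% of all protein-coding genes. The exceptions were lin-46 and apl-1. In replicate 1 alone 8 genes held a summit of rank 5000 or better, against 33.6% of genes, and in replicate 2 alone 6 did, against 33.1%. The background share grew with window length, since a long window holds more of any list: it was 28.4% for genes with windows up to 7500 bp, 45.0% between 10000 and 15000 bp, and 74.2% above 25000 bp. Among the timing genes 4 had windows above 20 kb, which were those of lin-14, lin-29, lin-42 and daf-12, and all 4 held such a summit.

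Support from both replicates was then read for each region, as an overlap of at least 1 bp with a region of each replicate list. A region with such support was present at 8 of the 10 genes, against 49.4% of all protein-coding genes, and that background ran between 41.8% and 92.9% from the shortest to the longest windows. hbl-1 and apl-1 had none. Only lin-28 and daf-12 held a region of rank 5000 or better in the joined list and in both replicate lists, which is 2 of 10 genes against 8.73%. The median over genes of the best joined rank was 1925.5 for the timing genes and 8947 for all protein-coding genes. This value too depends on length: the median over all genes was 11101 for windows up to 7500 bp, 4037.5 between 15000 and 25000 bp and 2783 above 25000 bp. With windows cut to 1000 bp upstream and 200 bp downstream of a 5' end, most of these regions fell outside. In those shorter windows 0 of 10 genes held an IDR summit against 3.47%, and 1 of 10 held a joined summit of rank 5000 or better against 12.4%. A region overlapped by both replicates was held there by 3 of 10 genes against 17.3%, and 1 of 10 held a region of rank 5000 or better in all 3 lists against 4.27%. At rank 5000 or better the near-promoter count lay close to its background. With windows of 1000 bp upstream plus the gene body, 8 genes still held such a summit. The other near-promoter counts, of 0 to 3 genes, were too small to show a difference from their backgrounds.

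**Figure D1:**
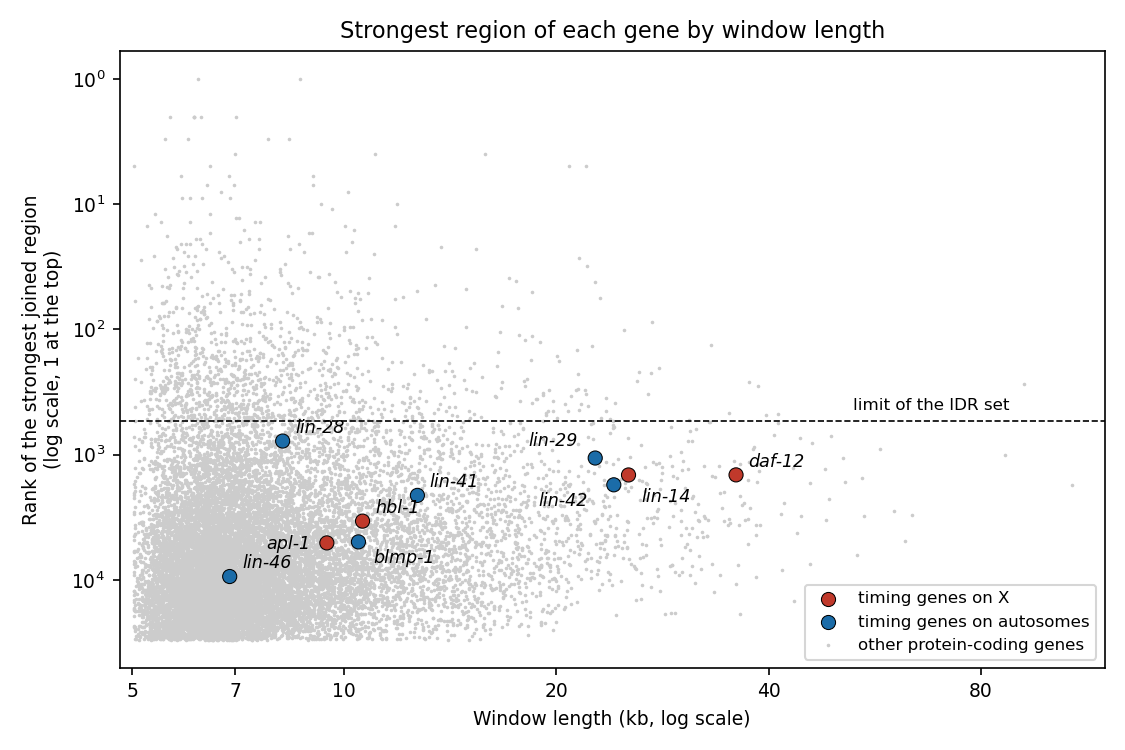
Rank of the strongest joined region of each protein-coding gene (vertical axis, log scale, rank 1 at the top) against the length of its window in kb (horizontal axis, log scale), with 1 point per gene that holds a region. The 10 timing genes are coloured by chromosome type and lie below the dashed limit of the IDR set, with lin-28 nearest to it at rank 778 and lin-46 lowest at rank 9381.

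The lowest signal in the IDR set was 39.1 in the joined list, where the median of the 30000 regions was 14.9, the lowest 11.6 and the highest 1699. The region at rank 5000 had a signal of 19.6. The strongest region of each timing gene had a signal between 17.0 and 31.7, above the median of the list in every case. All lay below the IDR set, which follows from the absence of IDR summits, since that set is the top of the joined list.

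lin-14 encodes a nuclear DNA-binding protein that specifies the earliest larval fates and is the classic target of the lin-4 microRNA. The gene lies on chromosome X from 11465560 to 11485871, and its 25.3 kb window held 14 joined summits, 5 of them at rank 5000 or better, as many as or more than all but 4 of the 19973 genes. Its strongest joined region, X 11467705 to 11468034, had a signal of 25.8 at rank 1451, lay in an intron 2310 bp downstream of the first 5' end, had rank 1388 in replicate 1 and overlapped nothing in replicate 2. Its next region had a joined signal of 25.2 at rank 1609 and lay 231 bp inside the gene, also in an intron. Each of these also lay in the promoter window of a non-coding gene, T25C12.7 at the stronger region and T25C12.8 at the next. The region 231 bp inside the gene had a signal of 19.1 and rank 1311 in replicate 1, and a signal of 5.44 and rank 24288 in replicate 2. The other 3 regions of rank 5000 or better had joined ranks of 2271, 3907 and 4866, in a coding exon and in introns. All 3 overlapped both replicates, but their best replicate 2 rank was 14142. The replicates thus differed in their order at lin-14: it held 6 replicate 1 summits of rank 5000 or better, exceeded by 1 gene, and 1 in replicate 2. That one, a replicate 2 region of signal 9.44 and rank 4287, matched a joined region of rank 8796.

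lin-28 encodes an RNA-binding protein that blocks maturation of let-7 and keeps cells in L2 fates. lin-28 lies on chromosome I from 8407630 to 8410804 on the minus strand and held the strongest region of the 10 genes. That region, 8410009 to 8410338, had a joined signal of 31.7 at rank 778, a replicate 1 signal of 19.5 at rank 1228 and a replicate 2 signal of 11.5 at rank 1643. The 3 summits lay within 1 bp of each other, in an intron, 254 bp upstream of an internal 5' end and 630 bp downstream of the outermost one. In the joined list 235 regions outside the IDR set ranked above it. A second region, 8413496 to 8413825, had a joined signal of 26.6 at rank 1308, with rank 1559 in replicate 1 and rank 25909 in replicate 2. It lay 2857 bp upstream of lin-28 within an intron of the neighbouring gene F02E9.7, so which gene it belongs to cannot be told apart. The high lin-28 rank thus held in all 3 lists for the region inside the gene only.

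hbl-1 encodes a zinc-finger protein of the Hunchback family that promotes L2 fates. It lies on chromosome X from 5822142 to 5827755, and its 10.6 kb window held 4 joined summits, none of which both replicates overlapped. The strongest had a joined signal of 21.4 at rank 3389 in a coding exon and a replicate 1 signal of 15.7 at rank 2971, with no region in replicate 2. The strongest replicate 2 region was elsewhere, 203 bp upstream of a 5' end, with a signal of 9.93 at rank 3388, and it overlapped no region of replicate 1 or of the joined list. The replicates therefore pointed to different places in hbl-1.

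lin-46 encodes a protein related to gephyrin and to molybdenum cofactor enzymes and acts downstream of lin-28. The gene occupies chromosome V from 12968855 to 12970730, in the shortest of the 10 windows at 6.88 kb, and its best joined region had a signal of 17.0 at rank 9381. That region had rank 8820 in replicate 1 and rank 11524 in replicate 2, and its summit lay 867 bp upstream of the gene. It also lay in the promoter windows of R186.3 and R186.8, and it held both ACGCGC and GACGCA, the single member region with more than 1 of the words. Among all protein-coding genes 51.6% had a best rank as high, so the best rank of lin-46 lay near the middle of all genes. For genes with windows up to 7500 bp, as that of lin-46 is, the median best rank was 11101.

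lin-41 encodes a TRIM-NHL RNA-binding protein that is repressed by let-7 and holds back LIN-29. On chromosome I, where the gene runs from 9334800 to 9342496, its window held 6 joined summits, 3 of them at rank 5000 or better. They had joined signals of 23.7 in a coding exon, 21.0 in an intron and 20.4 in the 3' UTR, at ranks 2112, 3685 and 4170. Only the 3' UTR region overlapped both replicates. A region 1513 bp upstream of the gene ranked 4374 in replicate 1 and 4270 in replicate 2 but 8288 in the joined list, with a joined signal of 17.5. It was the region of lin-41 on which the replicates were most alike in rank, and a neighbouring joined region of rank 19282 overlapped the same replicate 2 region.

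lin-29 encodes the zinc-finger transcription factor at the end of the pathway, which turns skin cells to the adult fate. The gene spans chromosome II from 11917642 to 11935343, and 1 of its 7 joined summits was at rank 5000 or better. That region, 11922802 to 11923131, had a joined signal of 28.1 at rank 1063 and lay in an intron 1529 bp upstream of an internal 5' end. It ranked 768 in replicate 1, the highest replicate 1 rank of the 10 genes, and replicate 2 had no overlapping region. The strongest replicate 2 region of lin-29, with a signal of 10.1 at rank 3155, lay in the 3' UTR, where replicate 1 ranked 24213. The second strongest region of the whole set thus rested on 1 replicate.

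lin-42 encodes the worm relative of the circadian protein Period and cycles with the moults. It lies on chromosome II from 1233236 to 1252359 and held 13 joined summits, of which 2 were at rank 5000 or better and 2 overlapped both replicates. The strongest, 1246905 to 1247234, had a joined signal of 24.8 at rank 1739, a replicate 1 rank of 2163 and a replicate 2 rank of 11058. It lay in a lin-42 intron that also holds an exon of the non-coding gene F47F6.15, and in the promoter window of the non-coding gene F47F6.13. The other had a joined signal of 21.8 at rank 3099 in an intron, with rank 1530 in replicate 1 and nothing in replicate 2. Its best replicate 1 region, of rank 1436, lay in the 3' UTR, and its best replicate 2 region ranked 8993. Of its 13 joined regions 8 overlapped replicate 1 alone and 2 overlapped replicate 2 alone. Replicate 1 also led in the whole joined list, where 11302 of 30000 regions overlapped replicate 1 alone and 6718 replicate 2 alone.

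daf-12 encodes the nuclear receptor for the steroid hormone dafachronic acid, which couples larval progress to growth conditions. It lies on chromosome X from 10635908 to 10666875 with 9 annotated 5' ends, and its window of 36.0 kb held 26 joined summits, 9 of them at rank 5000 or better. No other protein-coding gene held as many; the next were cox-6B with 8 in a 92.2 kb window, Y17D7C.2 with 7 and rbc-2 with 6. At rank 10000 or better daf-12 held 12, again the most of any gene. With all 30000 regions 1 gene held more than its 26, and at rank 2000 or better 8 genes held more than its 3. Part of the count goes with length: 55 genes had longer windows, and 850 genes held more summits of rank 5000 or better per kb. In each replicate list alone daf-12 held 5 summits of rank 5000 or better, exceeded by 6 genes in replicate 1 and by 2 in replicate 2. It was the one timing gene with more than 1 replicate 2 summit at that rank.

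Within daf-12, 6 of the 9 stronger regions lay in the 8.50 kb between its first and second annotated 5' ends, all in intron. Their summits lay 602, 1791, 2870, 4830, 5676 and 6561 bp downstream of the first 5' end, with joined signals between 21.2 and 25.3. Of the 9 joined regions in this stretch, 8 overlapped both replicates. The region X 10637534 to 10637863 had a joined signal of 24.3 at rank 1898, with signals of 16.3 at rank 2466 in replicate 1 and 10.8 at rank 2237 in replicate 2. The region X 10642304 to 10642633 had a joined signal of 21.2 at rank 3500, with signals of 15.4 at rank 3252 in replicate 1 and 11.2 at rank 1875 in replicate 2. These were the daf-12 regions that held rank 5000 or better in all 3 lists, and their sequences are printed above. The strongest joined region of the gene lay 3868 bp upstream, with a signal of 25.8 at rank 1449, a replicate 1 rank of 5746 and a replicate 2 rank of 2055. The remaining 2 lay in a far intron at rank 4328, where the promoter windows of the non-coding genes F11A1.13, F11A1.14 and 21ur-15005 also held the summit, and in the 3' UTR at rank 2894, in the promoter window of the non-coding gene F11A1.11. The 3' UTR region ranked 1924 in replicate 1 and 28103 in replicate 2, a wide gap between the replicates.

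**Figure D2:**
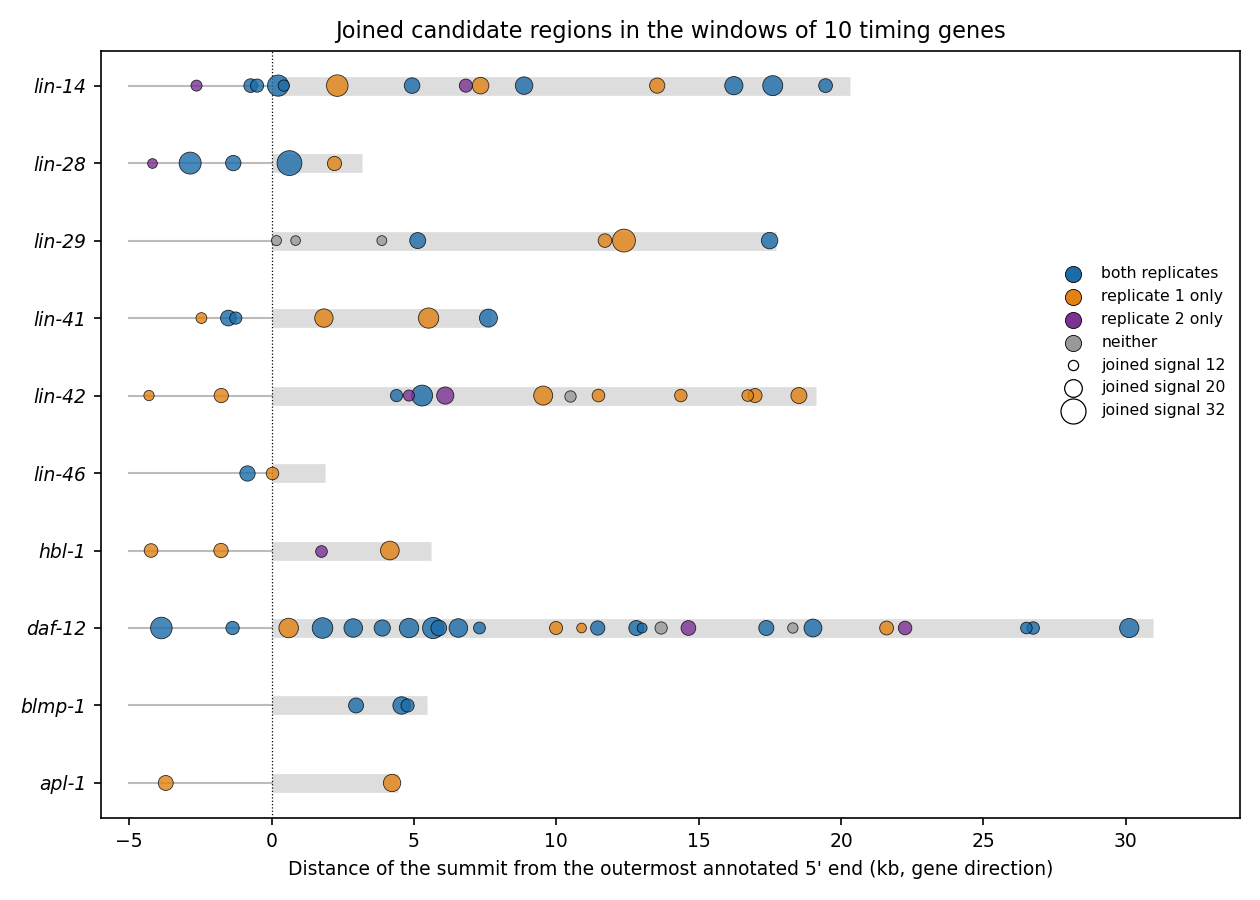
Joined regions in the windows of the 10 timing genes, placed by the distance of the summit from the outermost annotated 5' end in kb (horizontal axis), with 1 gene per row, the gene body as a grey bar and the upstream 5 kb as a thin line. Point area grows with joined signal and colour shows which replicate lists held an overlapping region: at daf-12 18 of 26 points are held by both replicates, and at lin-42 2 of 13.

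blmp-1 encodes a zinc-finger repressor related to Blimp-1 that acts in larval timing and skin formation. The gene spans chromosome I from 10409302 to 10414773, and all 3 of its joined regions overlapped both replicates. Those in the 3' UTR overlapped each other and matched the same region of replicate 1. The replicate 2 signals of the 3 ran from 5.02 to 5.58, where the lowest signal of that list was 4.89. The strongest had a joined signal of 19.7 at rank 4966, just inside rank 5000, in the 3' UTR, with rank 10475 in replicate 1 and rank 28529 in replicate 2. Among all protein-coding genes 33.7% had a best rank as high. Its best replicate 2 region ranked 22982, the lowest best rank of the 10 genes in that replicate.

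apl-1 encodes the single worm relative of the amyloid precursor protein, and its expression in skin cells responds to the timing pathway. It lies on chromosome X from 5112422 to 5116866, and neither of its 2 joined regions overlapped both replicates. The stronger had a joined signal of 19.6 at rank 5058, just outside rank 5000, in the 3' UTR, with rank 5429 in replicate 1. The other lay 3714 bp upstream, with rank 10326 in the joined list and 2319 in replicate 1. Its best replicate 2 region had a signal of 6.51 at rank 15736 in an intron. blmp-1 and apl-1 differed by little in joined signal and by the presence of the second replicate.

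**Figure D3:**
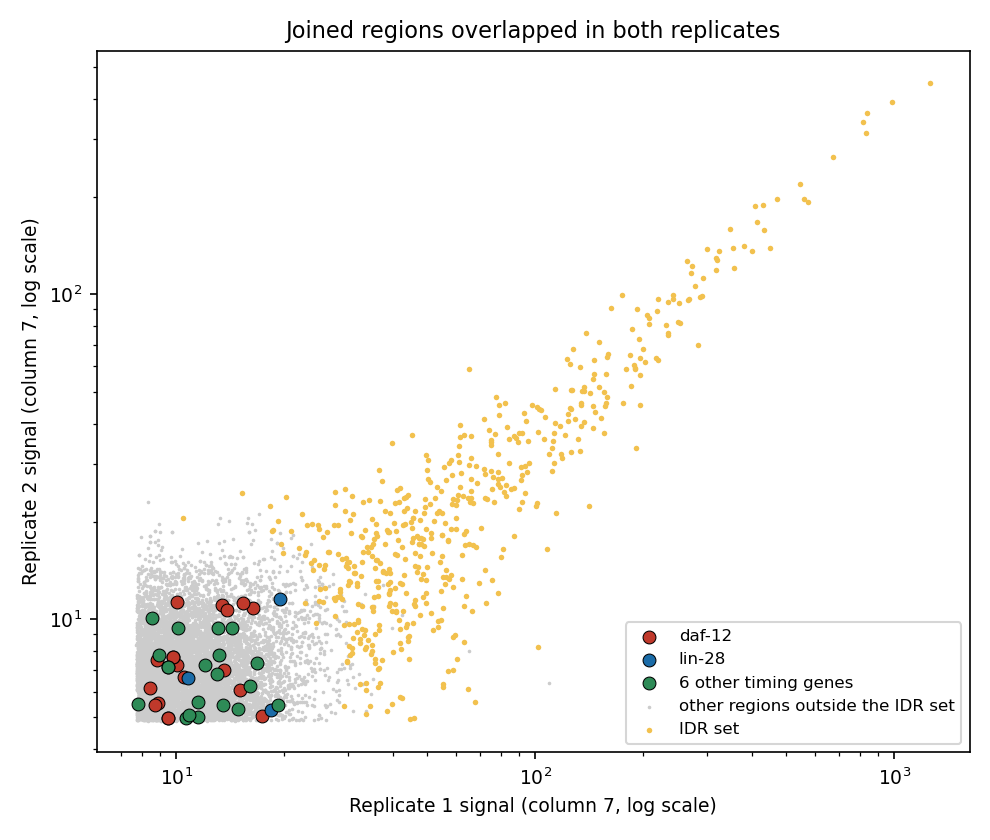
Signal in replicate 1 (horizontal axis) and replicate 2 (vertical axis) of every joined region overlapped in both replicates, on log scales, with 1 point per region. The 41 regions of the timing genes lie in the cloud of weaker regions outside the IDR set, and the strongest lin-28 region has 19.5 in replicate 1 and 11.5 in replicate 2.

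Over the 10 genes the joined list held 82 summits, and 24 of these were at rank 5000 or better. Windows of the timing genes held 0.493 joined summits per kb, against 0.301 over the windows of all protein-coding genes. For summits of rank 5000 or better the densities were 0.144 and 0.0503 per kb. Without daf-12 the timing genes had 0.429 joined summits per kb and 0.115 of rank 5000 or better, and without daf-12 and lin-14 they had 0.400 and 0.0951. The pooled density of the other 8 genes was thus above the overall value, though 14 of the 24 stronger summits belonged to daf-12 and lin-14. Singly, lin-46, blmp-1 and apl-1 lay below it, with 0.291, 0.286 and 0.212 joined summits per kb. At rank 5000 or better lin-46 and apl-1 held none, and lin-29 had 0.0440 per kb. On chromosome X the 4 timing genes had 0.566 joined summits per kb against 0.322 for X-linked genes. Of their 46 summits daf-12 held 26 and lin-14 held 14, while hbl-1 had 0.377 per kb and apl-1 0.212. On autosomes the other 6 genes had 0.423 joined summits per kb against 0.297. The replicates differed in this. In replicate 1 the timing genes had 0.541 per kb on X against 0.320, and 0.494 on autosomes against 0.298. In replicate 2 they had 0.516 per kb on X against 0.323, and 0.294 on autosomes against 0.297. Of the 42 replicate 2 summits on X, daf-12 held 27 in a 36.0 kb window and lin-14 held 10 in 25.3 kb. hbl-1 held 2 in 10.6 kb and apl-1 held 3 in 9.4 kb. The replicate 2 value on X thus rested mostly on daf-12. The higher density at the autosomal timing genes was therefore a feature of replicate 1 and of the joined list. No test was made, since 10 chosen genes are not replicates of a condition.

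**Figure D4:**
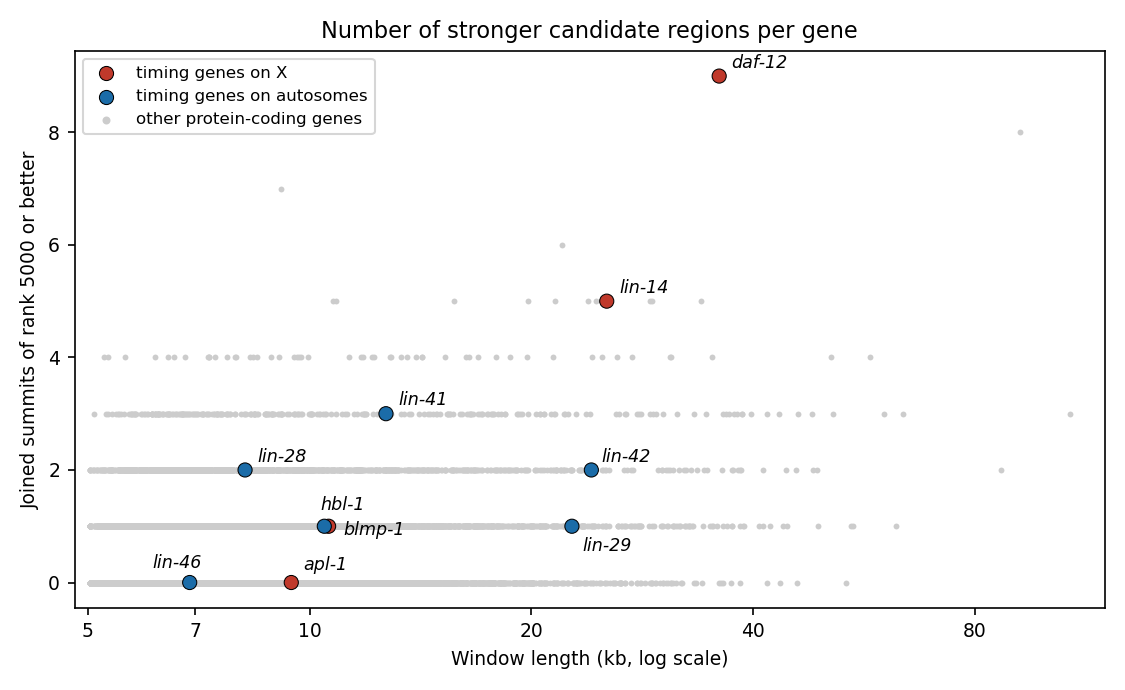
Number of joined summits of rank 5000 or better in the window of each protein-coding gene (vertical axis) against window length in kb (horizontal axis, log scale), with 1 point per gene. daf-12 stands highest with 9 and lin-14 has 5, while lin-46 and apl-1 have 0.

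Replicate support was read against all joined regions, and then separately for ranks up to 5000 and for lower ranks. Of the 82 member regions 41 overlapped both replicates, or 50% (95% Wilson interval 39.4 to 60.6), against 30.7% of all 30000. At rank 5000 or better it was 17 of 24, or 70.8% (50.8 to 85.1), against 73.0% of the 5000, so the stronger member regions were held about as often as others of their rank. At lower ranks it was 24 of 58, or 41.4% (29.6 to 54.2), against 22.3% of the 25000. By chromosome the share over all ranks was 58.7% of 46 regions on X and 38.9% of 36 on autosomes. Of all joined regions there it was 31.3% and 30.6%. Of the 27 member regions on X with such support daf-12 held 18 and lin-14 held 9, while hbl-1 and apl-1 had none. The 24 stronger regions all overlapped replicate 1, 7 overlapped replicate 1 alone and none overlapped replicate 2 alone. Of all 5000 regions at those ranks 4751 overlapped replicate 1, 1101 overlapped replicate 1 alone and 242 replicate 2 alone, so these member counts were near those of other regions. Regions in 1 gene are not independent, and 16 of the 82 overlapped another member region, so that 1 replicate region could match both.

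Summits of the timing genes lay mostly inside the genes. In the joined list 50 of 82 were in introns, or 61.0%, against 22.1% of summits counted over all protein-coding windows. Upstream sequence held 17, or 20.7%, against 63.8%. Introns held 22 of 26 summits at daf-12, 10 of 13 at lin-42, 9 of 14 at lin-14 and 5 of 7 at lin-29. These are the genes with the longest windows, and they held most of the 50. At lin-28 introns held 2 of 5 and at lin-41 1 of 6, with 3 upstream at each. lin-46, hbl-1 and apl-1 had no summit in an intron, and blmp-1 had most of its summits in the 3' UTR. The share of each place goes with gene length, since the upstream 5000 bp are most of a short gene's window. In 3' UTRs there were 8, in coding exons 4 and in 5' UTRs 3. Of the 24 stronger summits 16 were in introns, 3 in coding exons, 3 in 3' UTRs and 2 upstream. Only 2 of these 24, or 8.33%, lay within 500 bp of a 5' end of their gene, which were the first lin-28 region and the lin-14 region 231 bp inside the gene. For comparison, 79.5% of IDR summits and 30.9% of the other joined summits of rank 5000 or better lay within 500 bp of a 5' end of any protein-coding gene.

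Other genes of the pathway were read in the same windows from a list of 22. The list includes the microRNA genes lin-4, let-7, mir-48, mir-84, mir-241 and mir-237. These are outside the protein-coding background, whose shares vary with window length. Of the 22 genes, 3 held an IDR summit, against 6.22% of all protein-coding genes. A joined summit of rank 5000 or better was held by 14, against 33.8%. A region overlapped by both replicates was held by 19, against 49.4%, and a region of rank 5000 or better in all 3 lists by 4, against 8.73%. The strongest was at nhl-2, a TRIM-NHL cofactor of the microRNA machinery, with a joined signal of 115 at rank 157. That summit also lay in an exon of the non-coding gene F26F4.14 and in the promoter window of tag-340. At tim-1, related to the clock gene timeless, the IDR summit had a joined signal of 73.9 at rank 252 and lay 245 bp upstream, where it was shared with the promoter windows of Y75B8A.23, sls-2.8 and Y75B8A.49. At din-1, which encodes a corepressor partner of DAF-12, the IDR summit had a joined signal of 40.4 at rank 520 and lay 2112 bp upstream, with rank 1583 in replicate 1 and rank 239 in replicate 2. din-1 also held 5 joined summits of rank 5000 or better, as lin-14 did.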

How the data were processed

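The data are narrowPeak lists from ChIP-seq of 2 libraries, which the labels give as separate biological replicates of 1 group. Column 7 of the deposited lists is a signal per region from the authors' peak caller, and neither its name nor the aligner is given in the sources used here. The notes beside the files state that candidates were called against a control, which was not analysed here. Read depth is unknown. The ce10 lists were not used.

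Genes came from Ensembl release 115 on WBcel235 and sequence from the RefSeq copy. let-7 was placed by its RefSeq symbol at identical coordinates. Windows, ranks, overlaps and words were computed with Python 3.11.15, pandas 2.3.3 and numpy 2.4.6, checked on simulated regions. A joined region was paired with the overlapping replicate region of nearest summit. With 1 group no test was made, and intervals cover counting error only. All members, their regions of rank 5000 or better, genes sharing those regions and other pathway genes with an IDR summit are named; genes with the most summits were named after their values were seen. Members and lists were chosen with earlier results of these data known. Alternatives changed the window, rank limit, overlap rule and replicate, and left out genes.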

Additional observations from a re-analysis of the deposited data

How the results depend on the processing

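Of 49 alternatives, 38 of them listed at the start, 39 left a count or density close to its value and 10 moved it further. With windows cut to 1000 bp upstream and 200 bp downstream of a 5' end, the number of timing genes with a joined summit of rank 5000 or better was 1, with a region overlapped by both replicates 3, with a region of rank 5000 or better in all 3 lists 1, and with the same strongest region 2, while joined summits per kb came to 0.322. With a rank limit of 1000 the first count was 1, and with 2000 it was 5. With replicate regions taken only from the first 10000, 3 genes held a region overlapped by both. With a rank limit of 2000 in all 3 lists, 1 gene held such a region. Without daf-12 and lin-14, summits of rank 5000 or better came to 0.0951 per kb. Replicate 1 or replicate 2 alone, in place of the joined list, gave 6 to 8 genes with a summit of rank 5000 or better, 0 to 0 genes among the first 542 and 0.403 to 0.517 summits per kb. No paired analysis was possible because there was 1 group. The counts over all 3 lists, the densities at rank 5000, the leaving out of genes and the splits by length and chromosome were added after seeing the data. The unknown depth and the unstated signal scale limit every comparison between lists.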

Other observations

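Among the other pathway genes, some chosen after their values were seen came close to the IDR set. A region upstream of hrpk-1, which encodes an RNA-binding protein related to hnRNP K, had a joined signal of 39.1 at rank 543, the first rank below the IDR set, and lay in the promoter window of ima-2. A region 876 bp upstream of ain-1, which encodes a GW182-type partner of Argonaute proteins, had a joined signal of 37.1 at rank 587, with rank 870 in replicate 1 and rank 415 in replicate 2. A region 189 bp upstream of mir-84, a let-7 family microRNA, had a joined signal of 31.2 at rank 804, with rank 1179 in replicate 1 and rank 8989 in replicate 2. The region 1662 bp upstream of let-7 itself had a joined signal of 23.2 at rank 2324 and also lay in the promoter window of C05G5.2. At daf-9, which encodes the enzyme that makes the DAF-12 hormone, no summit was at rank 5000 or better, and its strongest region ranked 6511.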
